A study of Homo sapiens with 9 samples.

Results

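The 38 genes described here encode the enzymes and carriers of glycolysis, of glycogen synthesis and breakdown, of lactate formation and export, and of pyruvate entry into the mitochondrion. They were chosen by gene symbol from a list of the pathway, and all 38 were found among the 25680 symbols of the count files. The samples were 9 RNA libraries of SKNO-1, a human acute myeloid leukaemia cell line whose labels give the fusion protein as AML-ETO (AML1-ETO, or RUNX1-RUNX1T1). Every group carries this fusion. The 3 groups were EV, the control, and SH2 and SH3, cells with either of 2 different shRNAs against ASXL2, a Polycomb-associated chromatin regulator. The study describes its control as a control shRNA, and the label EV is not explained. Each group had 3 samples, numbered 1, 13 and 25 in the labels without a word on what the numbers stand for, and a sample is written below as its group and number (SH3 1). All samples come from 1 cell line grown in culture, so the spread between them is not that between patients. The extraction text describes sorted bone marrow cells and differs from the stated cell line.

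Glycolysis splits glucose into pyruvate in the cytosol. Pyruvate is then reduced to lactate, which monocarboxylate transporters carry out of the cell, or it enters the mitochondrion through the pyruvate carrier and is oxidised to acetyl-CoA by the pyruvate dehydrogenase complex. Glycogen is a store of glucose that is built from glucose 1-phosphate and broken down to it again. Many glycolytic steps can be catalysed by several isozymes from separate genes, and many of these genes are known to be induced when oxygen is scarce. Leukaemia cells, like many proliferating cells, are known for a high rate of glycolysis to lactate.

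The libraries held 27714431 to 35406063 counts with 1 transcript per gene. Normalised read counts are given as CPM, the count scaled to the TMM-adjusted library size, and levels are compared between genes only after division by transcript length, as CPM per kilobase. Of the 6 markers of the myeloid blast, MPO, KIT, CD33, SPI1 and RUNX1T1 were present in all samples (MPO at 6368 to 10243 CPM), while CD34 was near 0 with at most 10 counts. The 18 markers of T cells, mature B cells, fibroblasts, epithelium, erythroid cells and macrophages summed to 2.58 to 5.65 CPM in the samples numbered 1 and 1.39 to 2.90 CPM in the other 6. CD3E, MS4A1, COL1A2, KRT19, HBB and MARCO had no count in any sample. PDGFRB, of the fibroblast markers, was present in all samples at 0.935 to 1.97 CPM. CD22, of the B cell markers, was at 0.0347 to 3.37 CPM. ASXL2 itself was at 67.9, 67.9 and 74.7 CPM in EV 1, 13 and 25, at 30.4, 36.2 and 36.2 CPM in SH2, and at 26.9, 29.1 and 41.1 CPM in SH3, so that all 6 knockdown samples lay below all 3 controls (log2 -1.03 for SH2 and -1.12 for SH3; edgeR adjusted p = 0.808 and 0.612, and 0.00469 and 0.00407 with the number as a block). Samples with the same number deviated together from their group means, and SH3 1 stood furthest from the rest on the first principal component (-58.6, with EV 1 at -24.9, SH2 1 at -21.2 and the other 6 between 4.84 and 25.0). SH3 1 is therefore named where leaving it out moved a result.

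Of the 38 genes, 37 passed the filter on low counts. The exception was HK3, a hexokinase, with 2 to 10 counts per sample. The highest median levels over the 9 samples were 3319 CPM per kilobase for GAPDH, 1510 for ENO1 and 1105 for LDHB, followed by PKM at 702, TPI1 at 521 and ALDOA at 499. At the other end of the 37, PKLR, the pyruvate kinase of liver and red cells, was at 0.072 CPM per kilobase, PFKFB2 at 1.24, ENO2 at 2.02 and ALDOC at 2.20. GAPDH, PGAM1, LDHA, PKM, TPI1, ENO1, LDHB, ALDOA, PGK1, HK2, SLC16A1 and PDHA1 have named processed pseudogenes in the annotation (65 for GAPDH, 13 for PGAM1), so that their counts are less certain wherever reads were shared with a copy. Together the 38 genes took 1.85%, 2.09% and 2.69% of the counts in EV 1, SH2 1 and SH3 1 and 1.55% to 1.85% in the other 6 samples. SH2 1 and SH3 1 thus exceeded all samples not numbered 1, and EV 1 did not.

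**Figure D1:**
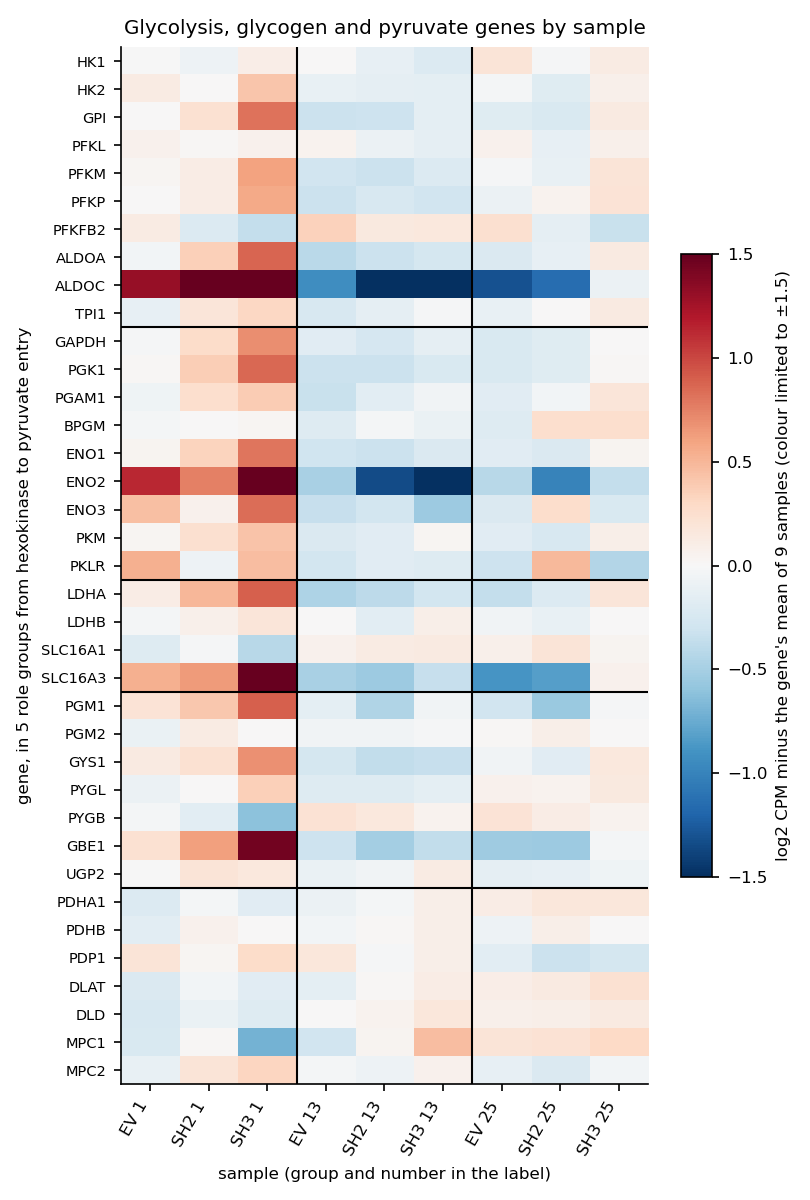
Colours show log2 CPM of the 37 tested genes (vertical, in 5 role groups parted by lines) minus the gene's mean over the 9 samples (horizontal, ordered by number, then group), limited to ±1.5. The column SH3 1 is the darkest, with ALDOC, ENO2, SLC16A3 and GBE1 at the top of the scale, and the columns EV 1 and SH2 1 share these reds more faintly.

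The first comparison set the 3 samples numbered 1 against the 6 numbered 13 and 25, with the group as a term. It was chosen with earlier results of these data known. Higher in the samples numbered 1 were 7 of 10 tested genes of the upper steps of glycolysis, 7 of 9 of the lower steps, 2 of 4 of lactate formation and export, 4 of 7 of glycogen and 2 of 7 of pyruvate entry. Lower were none of the upper and lower steps, 1 of 4 of lactate formation and export, 1 of 7 of glycogen and 3 of 7 of pyruvate entry. With edgeR's quasi-likelihood test, 27 of the 37 genes passed an adjusted p of 0.05. The background was high, since 46.3% of the 14199 genes tested passed it, 24.1% higher and 22.2% lower. Among the genes described here 22 were higher and 5 lower. Their median difference was 0.27 on the log2 scale, beside 0.01 over all genes. Within single groups, the sample numbered 1 lay above the mean of the other 2 for 24 of 37 genes in EV, 27 in SH2 and 28 in SH3, with median log2 differences of 0.18, 0.21 and 0.37, while the median over all genes was between -0.00 and 0.01. Without SH3 1, 21 of the 37 genes passed, beside 33.7% of all genes: ENO3, HK2, TPI1, MPC2, DLAT and PDHA1 no longer did, and none changed direction among the 27. The median difference of the 37 genes was then 0.20. GBE1 stood at 0.89 on the log2 scale, PGK1 at 0.46, ENO1 at 0.44, ALDOA at 0.42, GYS1 at 0.39 and GPI at 0.38. PYGB stood at -0.27. Each of these was smaller in size than with SH3 1 in the fit. With all 9 samples, the median difference was positive in all 3 groups and largest in SH3. Since the numbers are unexplained, the source of this difference cannot be told apart from anything else the samples numbered 1 shared. Nor can bulk RNA tell more RNA per cell from a larger share of cells that hold it.

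**Figure D2:**
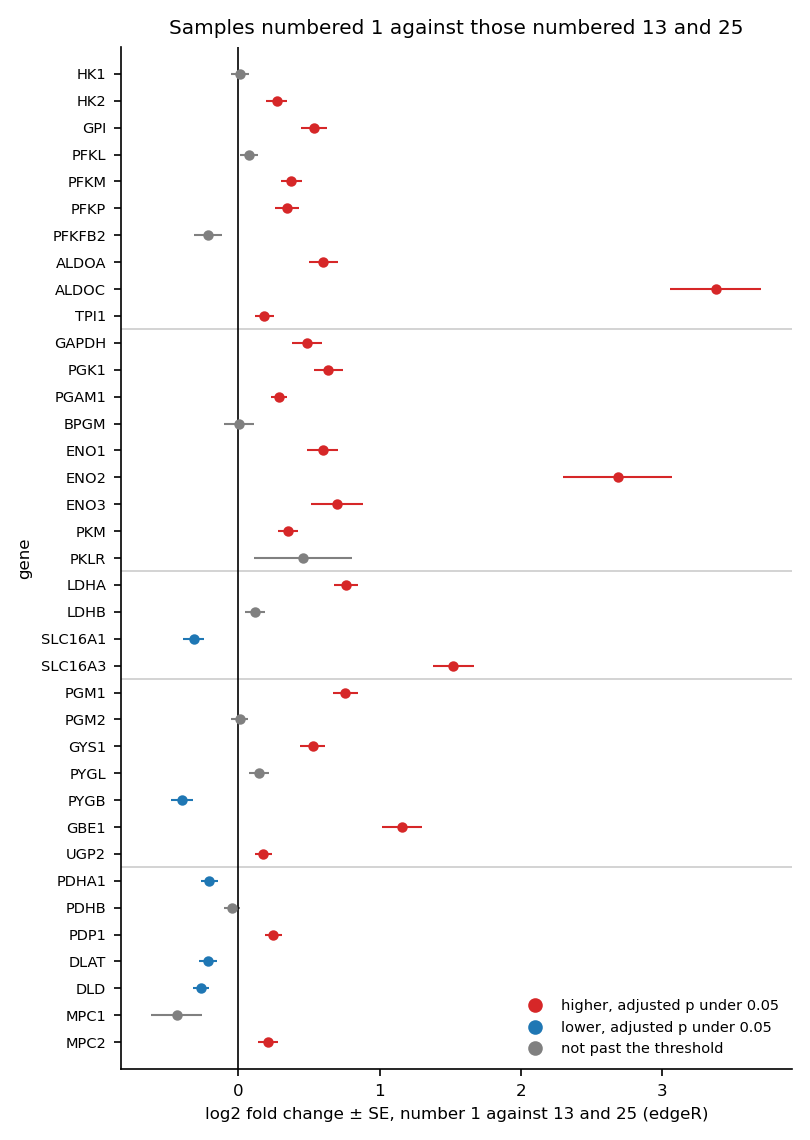
Points show the log2 fold change of each of the 37 genes between the samples numbered 1 and those numbered 13 and 25, with the SE as bars, from edgeR's fit over all 9 samples. ALDOC (3.38), ENO2 (2.68), SLC16A3 (1.52) and GBE1 (1.16) stand apart on the right, and 5 genes in blue lie left of 0.

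For 6 genes, ALDOC, PGK1, ENO2, SLC16A3, PGM1 and GBE1, all 3 samples numbered 1 lay above all 6 others, a pattern that 14.4% of all tested genes showed. For 3 genes, SLC16A1, PYGB and DLD, all 3 lay below, as did 12.1% of all genes. SH3 1 was the highest of the 9 samples for 23 of the 37 genes, beside 28.5% of all genes, and the lowest for 4, beside 26.3%.

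**Figure D3:**
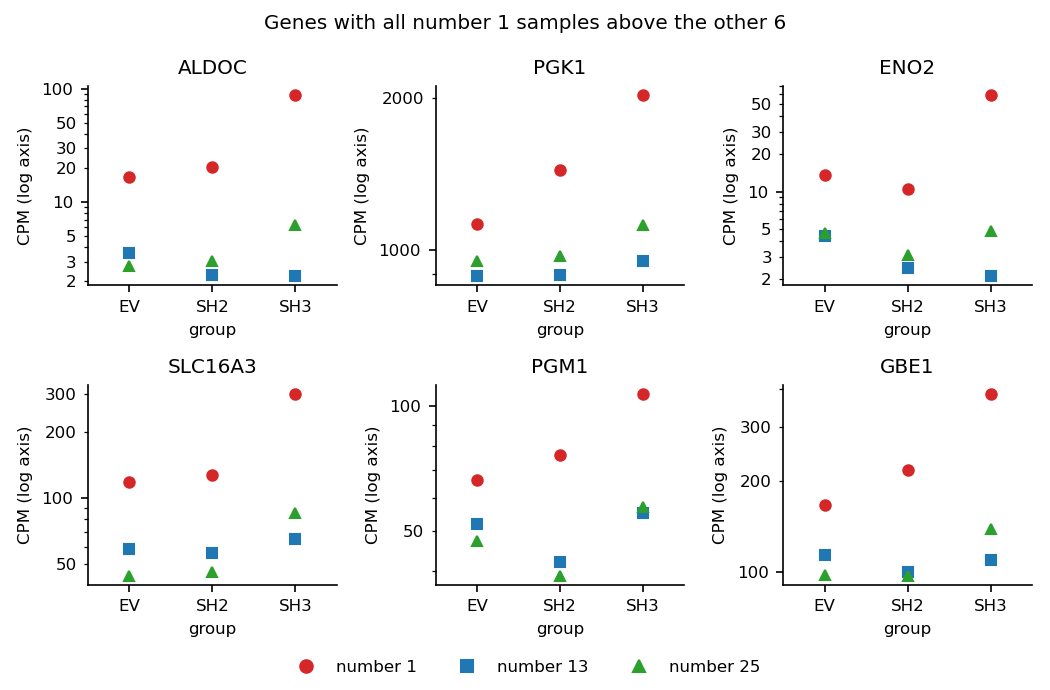
CPM (vertical, log axis) of the 6 genes whose samples numbered 1 (red circles) all lie above those numbered 13 (blue squares) and 25 (green triangles), by group (horizontal), 1 point per sample. ALDOC spans the widest range, from 2.22 CPM in SH3 13 to 88.3 CPM in SH3 1, and PGK1 starts from the highest base, 889 CPM in EV 13.

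In the upper steps, 7 of 10 tested genes were higher in the samples numbered 1 and none lower, beside 24.1% and 22.2% of all genes. ALDOC, an aldolase best known from brain, was at 16.6, 20.5 and 88.3 CPM in EV 1, SH2 1 and SH3 1, at 3.54, 2.29 and 2.22 CPM in the samples numbered 13, and at 2.73, 3.05 and 6.33 CPM in those numbered 25. The groups of samples did not overlap, and the log2 difference was 3.38 ± 0.32 (SE), a 10.4-fold difference (adjusted p = 0.000157), falling to 6.39-fold without SH3 1. ALDOA, the main aldolase of these cells, was at 866, 1134 and 1627 CPM in the samples numbered 1, at 669, 713 and 741 CPM in those numbered 13 and at 764, 818 and 975 CPM in those numbered 25. Here EV 1 lay below SH3 25, and the log2 difference was 0.60 ± 0.10 (adjusted p = 0.00170). GPI, which converts glucose 6-phosphate to fructose 6-phosphate, was at 815, 946 and 1426 CPM against 647 to 884 CPM, a log2 difference of 0.53 ± 0.09 (adjusted p = 0.00181). The overlap was again between EV 1 and SH3 25.

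The other upper steps differed less. Among the phosphofructokinases PFKM and PFKP were higher by 0.37 and 0.34 on the log2 scale (adjusted p = 0.00335 and 0.00745), whereas PFKL was not past the threshold (0.08 ± 0.06, adjusted p = 0.349). HK2, the inducible hexokinase, was higher by 0.27 (adjusted p = 0.0124, and 0.0502 without SH3 1), and HK1, the housekeeping one, stood at 0.01 ± 0.07 (adjusted p = 0.907). TPI1, which interconverts the triose phosphates and had the highest level per kilobase of the upper steps, was at 656, 811 and 887 CPM in the samples numbered 1, at 607, 652 and 704 CPM in those numbered 13 and at 663, 719 and 784 CPM in those numbered 25. EV 1 lay inside the range of the others, and the log2 difference was 0.18 ± 0.07, with the highest adjusted p among the 27 genes that passed (0.0427; 0.105 without SH3 1). PFKFB2, which makes and removes the activator fructose 2,6-bisphosphate, had a log2 difference of -0.21 ± 0.10 (adjusted p = 0.0983).

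In the lower steps, 7 of 9 genes were higher and none lower, beside 24.1% and 22.2% of all genes. PGK1, the first step to yield ATP, was at 1128, 1438 and 2024 CPM in EV 1, SH2 1 and SH3 1, at 889, 893 and 952 CPM in the samples numbered 13 and at 951, 977 and 1124 CPM in those numbered 25. All 3 exceeded the others, EV 1 by a narrow margin over SH3 25, with a log2 difference of 0.64 ± 0.11 (adjusted p = 0.00135). ENO2, the neuronal enolase, rose from 4.42, 2.44 and 2.10 CPM (numbered 13) and 4.63, 3.08 and 4.84 CPM (numbered 25) to 13.5, 10.5 and 59.4 CPM. This was 6.43-fold (log2 2.68 ± 0.38, adjusted p = 0.000731), and 3.35-fold without SH3 1. ENO1, the main enolase, was at 3111, 3814 and 5306 CPM in the samples numbered 1 against 2434 to 3121 CPM in the others, with EV 1 just below SH3 25 (log2 0.60 ± 0.11, adjusted p = 0.00196).

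GAPDH, the gene with the highest level per kilobase, was at 4654, 5683 and 7622 CPM in EV 1, SH2 1 and SH3 1, at 4177, 3949 and 4265 CPM in the samples numbered 13 and at 4022, 4138 and 4725 CPM in those numbered 25. Only EV 1 and SH3 25 overlapped, and the log2 difference was 0.49 ± 0.11 (adjusted p = 0.00489). A gene often used to scale other measurements thus differed 1.40-fold between samples of 1 series. PGAM1, the mutase after PGK1, was at 130, 161 and 176 CPM against 107 to 153 CPM, by 0.29 ± 0.06 on the log2 scale (adjusted p = 0.00276). PKM and ENO3, the pyruvate kinase of most tissues and the muscle enolase, were higher by 0.35 and 0.70 (adjusted p = 0.00376 and 0.0113), ENO3 by 0.41 without SH3 1 (adjusted p = 0.0689). BPGM, which makes the haemoglobin ligand 2,3-bisphosphoglycerate, was at 0.00 ± 0.11 (adjusted p = 0.979), and PKLR, with a wide SE, at 0.45 ± 0.35 (adjusted p = 0.304).

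Lactate formation and export held genes that moved in opposite directions. LDHA, the dehydrogenase subunit that favours lactate formation, was at 529, 692 and 911 CPM in EV 1, SH2 1 and SH3 1, at 354, 373 and 404 CPM in the samples numbered 13 and at 383, 423 and 554 CPM in those numbered 25. Its log2 difference was 0.76 ± 0.09 (adjusted p = 0.000299), with an overlap between EV 1 and SH3 25 only. LDHB, the partner subunit, was at 1403, 1514 and 1629 CPM against 1287 to 1519 CPM, a log2 difference of 0.12 ± 0.07 that did not pass (adjusted p = 0.212). SLC16A3 (MCT4), the transporter known for lactate export, was at 119, 127 and 298 CPM in the samples numbered 1, at 58.5, 56.3 and 64.8 CPM in those numbered 13, and at 44.3, 46.1 and 85.8 CPM in those numbered 25. The difference was 2.87-fold (log2 1.52 ± 0.15, adjusted p = 0.000157), and 2.40-fold without SH3 1. SLC16A1 (MCT1), the transporter with higher affinity for lactate, went the other way, at 188, 212 and 161 CPM against 222 to 247 CPM, a log2 difference of -0.32 ± 0.07 (adjusted p = 0.00531).

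The composition of the isozyme families was read from levels per kilobase. SLC16A3 made up 46.4% to 72.8% of the SLC16A1 and SLC16A3 total in the samples numbered 1 and 21.2% to 35.8% in the others, with no overlap. ALDOC made up 1.81% to 5.24% of the aldolases against 0.305% to 0.658%, and ENO2 0.213% to 0.860% of the enolases against 0.0625% to 0.138%, so ALDOA and ENO1 remained by far the largest part. HK2 held 54.1% to 57.9% of the hexokinases against 48.7% to 53.6%. The LDHA share of 18.0% to 24.5% overlapped that of the other samples, 12.5% to 18.2%, as did the PFKP share, 32.8% to 39.7% against 28.9% to 36.2%. These shares follow from the same counts as the fold changes and are a description of them.

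**Figure D4:**
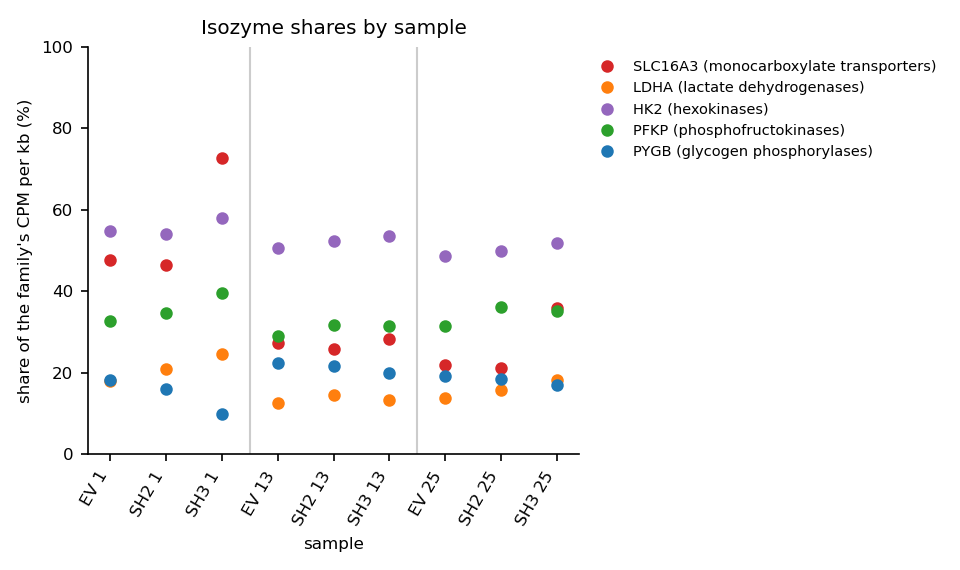
Share of 1 isozyme in its family's total CPM per kilobase (vertical, percent) in each sample (horizontal, parted by number). The red points of SLC16A3 stand at 46.4% to 72.8% in the samples numbered 1 and at 21.2% to 35.8% elsewhere, while PYGB (blue) is lowest in SH3 1, at 9.89%.

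Of the 7 glycogen genes 4 were higher and 1 lower, beside 24.1% and 22.2% of all genes. GBE1, the branching enzyme, was at 166, 217 and 385 CPM in EV 1, SH2 1 and SH3 1, at 114, 99.9 and 110 CPM in the samples numbered 13 and at 98.3, 97.5 and 139 CPM in those numbered 25. All 3 lay above the rest, by 2.23-fold in the fit (log2 1.16 ± 0.14, adjusted p = 0.000431). PGM1, which interconverts glucose 1-phosphate and glucose 6-phosphate, was at 66.4, 76.0 and 107 CPM against 39.1 to 57.0 CPM (log2 0.76 ± 0.09, adjusted p = 0.000336), and PGM2 at 0.01 ± 0.06 (adjusted p = 0.927). GYS1, the glycogen synthase of muscle and most other tissues, was at 100, 107 and 147 CPM against 71.1 to 102 CPM (log2 0.52 ± 0.09, adjusted p = 0.00132), EV 1 lying just below SH3 25.

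The glycogen phosphorylases, which release glucose 1-phosphate, did not follow. PYGB, the brain form, was at 78.1, 71.5 and 52.2 CPM in the samples numbered 1 and 83.1 to 92.7 CPM in the others, a log2 difference of -0.40 ± 0.08 (adjusted p = 0.00300), and PYGL, the liver form, had a difference of 0.15 ± 0.07 (adjusted p = 0.124). UGP2, which makes UDP-glucose and had the highest level per kilobase of the glycogen genes, was at 210, 241 and 234 CPM in EV 1, SH2 1 and SH3 1, at 197, 204 and 228 CPM in the samples numbered 13 and at 191, 194 and 201 CPM in those numbered 25. Its ranges overlapped and its log2 difference was 0.18 ± 0.06 (adjusted p = 0.0330).

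At pyruvate entry 3 of 7 genes were lower and 2 higher, beside 22.2% and 24.1% of all genes. Of these DLAT, PDHA1 and MPC2 no longer passed without SH3 1 (adjusted p = 0.0534, 0.0553 and 0.118). DLD, the dihydrolipoamide dehydrogenase shared by several mitochondrial complexes, was at 133, 146 and 138 CPM in EV 1, SH2 1 and SH3 1, at 157, 163 and 177 CPM in the samples numbered 13 and at 165, 167 and 172 CPM in those numbered 25. All 3 lay below the others (log2 -0.26 ± 0.06, adjusted p = 0.00471). DLAT and PDHA1, further subunits of pyruvate dehydrogenase, had differences of -0.22 and -0.21 (adjusted p = 0.0158 and 0.0178), and PDHB one of -0.04 ± 0.06 (adjusted p = 0.545). PDP1, the phosphatase that activates the complex, and MPC2, a subunit of the mitochondrial pyruvate carrier, were higher by 0.25 and 0.21 (adjusted p = 0.00856 and 0.0371). MPC1, the partner of MPC2, was at 3.98 CPM in SH3 1 and 5.31 to 8.92 CPM in the other 8 samples, and did not pass (log2 -0.44 ± 0.18, adjusted p = 0.0686).

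Other genes of the pathway were read from a separate list of 42, of which 33 passed the filter. In the samples numbered 1, 12 were higher and 6 lower (54.5% called), with a median log2 difference of 0.11. Of all genes 46.3% were called, 24.1% higher and 22.2% lower. The 4 with the smallest p values in edgeR were PFKFB4, PDK1, SLC2A1 and PDK3. PFKFB4, an enzyme of the same family as PFKFB2, stood at log2 4.04 ± 0.29 (edgeR adjusted p = 5.08e-05). PDK1 and PDK3, kinases that switch off pyruvate dehydrogenase, stood at 0.76 and 0.62 (adjusted p = 0.000452 and 0.00137). SLC2A1, the glucose transporter GLUT1, stood at 0.52 (adjusted p = 0.00108). Of 17 genes of the tricarboxylic acid cycle none was higher and 7 were lower, with a median of -0.15. All of the 41.2% called were lower, beside 22.2% of all genes called lower. In either direction 46.3% of all genes were called. IDH3A led at -0.60 (adjusted p = 0.000694). Of 14 tested genes known to respond to low oxygen and not part of glycolysis, 12 were higher and none lower. These 85.7% called stood beside 46.3% of all genes, and the median was 1.54 on the log2 scale. CA9, a carbonic anhydrase (7.23), BNIP3, a mitophagy receptor (2.91), and P4HA1, a collagen prolyl hydroxylase (2.17), were among them (adjusted p from 2.48e-05 to 7.02e-05). The part of these genes in the difference of the glycolytic genes was not tested. Among the markers of other cell types CD22, a B cell gene, was also higher, at 1.34 to 3.37 CPM in the samples numbered 1 and 0.0347 to 0.816 CPM in the others (adjusted p = 0.00233), and its part was not tested, whereas MS4A1 had no count.

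The 250 bases before the annotated start are shown for the 5 genes with the largest rises among the 12 named by smallest p, because these genes were higher together. Sequences are from RefSeq (GRCh38.p14), 5′ to 3′ on the strand of the gene. Capitals mark ACGTG on either strand (CACGT when read on the other), the core letters of the element bound by hypoxia-inducible factors. The letters CACGTG, the E-box, contain it and were counted once. ALDOC lies at chr17:28576896-28577145 (minus strand), ENO2 at chr12:6914330-6914579 (plus), SLC16A3 at chr17:82228792-82229041 (plus), GBE1 at chr3:81761646-81761895 (minus) and LDHA at chr11:18394313-18394562 (plus), each just upstream of the first exon. SLC16A3 has 5 such windows and LDHA 2 in the table, and the one with the most matches is printed.
ALDOC: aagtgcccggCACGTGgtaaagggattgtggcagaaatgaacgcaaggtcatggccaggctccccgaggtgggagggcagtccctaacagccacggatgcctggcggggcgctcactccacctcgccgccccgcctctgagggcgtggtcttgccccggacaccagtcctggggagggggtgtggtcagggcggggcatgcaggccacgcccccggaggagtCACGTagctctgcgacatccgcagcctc
ENO2: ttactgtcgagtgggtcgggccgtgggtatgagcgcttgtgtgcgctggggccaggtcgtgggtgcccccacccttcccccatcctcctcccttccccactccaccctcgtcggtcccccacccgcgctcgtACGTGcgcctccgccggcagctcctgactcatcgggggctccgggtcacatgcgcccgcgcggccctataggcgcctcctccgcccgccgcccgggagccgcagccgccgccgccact
SLC16A3: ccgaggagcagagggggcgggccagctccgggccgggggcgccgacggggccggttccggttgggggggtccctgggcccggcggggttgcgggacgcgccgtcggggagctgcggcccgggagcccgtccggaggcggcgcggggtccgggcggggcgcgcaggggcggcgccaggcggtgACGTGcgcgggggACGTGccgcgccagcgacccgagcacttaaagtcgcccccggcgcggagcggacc
GBE1: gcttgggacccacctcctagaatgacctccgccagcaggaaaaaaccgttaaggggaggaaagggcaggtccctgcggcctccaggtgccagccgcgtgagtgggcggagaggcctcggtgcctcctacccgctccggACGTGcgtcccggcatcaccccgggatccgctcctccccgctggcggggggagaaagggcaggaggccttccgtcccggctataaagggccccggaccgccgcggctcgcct
LDHA: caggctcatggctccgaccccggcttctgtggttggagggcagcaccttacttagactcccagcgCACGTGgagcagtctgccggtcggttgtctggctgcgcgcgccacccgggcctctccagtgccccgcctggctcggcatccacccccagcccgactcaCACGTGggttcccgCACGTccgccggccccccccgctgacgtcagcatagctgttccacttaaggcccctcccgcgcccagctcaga

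These windows held 2 matches for ALDOC, 1 for ENO2, 2 for SLC16A3, 1 for GBE1 and 3 for LDHA. A window was found for 35 of the 38 genes, and 20 of them (57.1%) held ACGTG in at least 1 window, beside 28.3% of the 10025 tested genes with a window and 21.7% of all 27305 genes in the table. The 35 genes had more windows each than the average gene, and by window the shares were 34.3% of 67 and 22.0% of 14422. Of the genes of the list called higher 15 of 21 held ACGTG, and of its other tested genes 5 of 13. These too differed in windows per gene, and by window the shares were 40.0% of 45 and 23.8% of 21. By contrast, 27.7% of all genes called higher held it, which is near the share of all tested genes. TGTGGT, the letters read by RUNX1, was in 22.9% of the 35 genes and 11.5% of tested genes, and by window in 13.4% and 8.68%. A match of letters is not evidence of binding.

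The second comparison asked whether the difference of the samples numbered 1 was itself unlike between the groups. ENO2 in SH3 exceeded EV by 2.53 ± 0.53 on the log2 scale in this respect, and GBE1 by 0.99 ± 0.22, but neither passed in edgeR (adjusted p = 0.513 and 0.534). No gene of the 37 and none of all 14199 passed for SH3 against EV or for SH2 against EV (0% of genes in both). At an unadjusted p of 0.05, 12 of the 37 stood out for SH3 (7.89% of all genes did) and 1 for SH2 (1.16%). DESeq2 called 17 genes for SH3 (0.120%), ENO2 and GBE1 among them (adjusted p = 0.00870 and 0.0465). This fit had 3 residual degrees of freedom and rests on SH3 1, a single sample that was assumed to vary like the others.

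Between the samples numbered 25 and 13, PDP1 alone passed, at 28.5, 25.5 and 26.6 CPM in those numbered 25 and 36.0, 31.6 and 33.8 CPM in those numbered 13 (log2 -0.33 ± 0.07, adjusted p = 0.0271), beside 5.87% of all genes. The 2 sets of 3 do not overlap. The log2 difference stayed at -0.35 to -0.28 with any 1 sample left out, but the call did not always hold. Without EV 13, EV 25, SH2 13, SH2 25 or SH3 25 the edgeR adjusted p was 0.133 to 0.164, and no gene of the list passed. In these fits 50 to 252 of all genes passed, beside 833 with all 9 samples. Without SH3 1, 9 of the 37 genes passed, 8 higher and 1 lower in the samples numbered 25, beside 19.2% of all genes (1411 higher and 1339 lower). With all 9 samples, the median log2 difference of the 37 genes was 0.14, beside -0.00 over all genes, and 27 lay above 0.

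The third comparison was that of the study, ASXL2 knockdown against control. The fit with the group alone held no term for the number, and ASXL2 itself did not pass in it. A lack of calls there does not show that levels were equal. The median of the 37 genes was above that of all genes with SH3, most so at number 1, but no gene of the 37 passed an adjusted p of 0.05 in edgeR for SH2, for SH3, for both shRNAs averaged, or for SH3 against SH2, and neither did any of the 14199 genes (0%). At an unadjusted p of 0.05 there were 3 genes of the 37 for both shRNAs averaged (6.63% of all genes), 0 for SH2 (5.37%), 2 for SH3 (5.09%) and 0 for SH3 against SH2 (2.06%), and DESeq2 called none of the 37 in any of the 4. The median log2 difference of the 37 genes was 0.14 for both shRNAs averaged, 0.07 for SH2, 0.20 for SH3 and 0.15 for SH3 against SH2, beside 0.00 to 0.01 over all genes. These medians moved with single samples. Without SH3 1 they were 0.07 for both shRNAs averaged, 0.07 for SH3 and 0.01 for SH3 against SH2, and without SH2 1 the median for SH2 was -0.08. Over all single samples left out they ranged from 0.07 to 0.22 for both shRNAs averaged (the highest without EV 1), from -0.08 to 0.13 for SH2 (0.12 without EV 1, 0.03 without EV 13, 0.13 without SH2 13), from 0.07 to 0.33 for SH3 (the highest without SH3 13) and from 0.01 to 0.26 for SH3 against SH2 (0.23 without SH2 1, 0.26 without SH3 13, 0.22 without SH3 25). The same EV samples serve the first 3 contrasts, and the values are given side by side for that reason.

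With the number as a replicate block, the counts rose to 156 genes (1.10%) for both shRNAs averaged, 40 (0.282%) for SH2, 59 (0.416%) for SH3 and 15 (0.106%) for SH3 against SH2. PGAM1 was then the only gene of the list to pass, for both shRNAs averaged. It was at 130, 107 and 120 CPM in EV 1, 13 and 25, at 161, 121 and 132 CPM in SH2 and at 176, 130 and 153 CPM in SH3, so each knockdown sample exceeded the EV sample of its number while the groups overlapped. The difference was 0.28 ± 0.06 on the log2 scale (adjusted p = 0.0488 with the block, 0.744 without it, and 0.0975 with the block and a correction for transcript length), and 0.36 for SH3 alone (adjusted p = 0.0503 with the block). For SH3, 20 of the 37 genes had an unadjusted p under 0.05 with the block, beside 18.7% of all genes. LDHA and SLC16A3 came next there, at 0.50 and 0.84 (adjusted p = 0.0617 and 0.0688), and neither passed.

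The blocked contrasts depended on SH3 1, and fits without it were added after seeing the data. Without SH3 1 the block gave 3 genes of the list for SH3, beside 2.58% of all genes. These were PGAM1 (0.34 ± 0.07, adjusted p = 0.0195), LDHA (0.41 ± 0.09, adjusted p = 0.0295) and SLC16A3 (0.57 ± 0.13, adjusted p = 0.0344), each with a smaller difference than with SH3 1 in the fit. For both shRNAs averaged 5 passed, beside 12.3% of all genes: PGAM1, LDHA, TPI1 and ALDOA were higher by 0.27, 0.30, 0.21 and 0.24 and PFKFB2 stood at -0.34 (adjusted p from 0.00911 to 0.0360). For SH2 2 passed, beside 11.2%, PGAM1 at 0.21 and ENO2 at -0.56 (adjusted p = 0.0345 and 0.0459), and for SH3 against SH2 none did, beside 0.721%. With only the samples numbered 13 and 25 and the block, which leaves 2 residual degrees of freedom, PGAM1, LDHA and SLC16A3 passed for SH3, beside 2.42%, at 0.31, 0.36 and 0.56 (adjusted p = 0.0246, 0.0301 and 0.0425). PGAM1 passed for both shRNAs averaged (0.23, adjusted p = 0.0468, beside 2.63%), PGM1 for SH3 against SH2 (0.46, adjusted p = 0.0103, beside 0.916%), and no gene of the list for SH2, beside 1.90%. DESeq2 was not run with the block.

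Of the other genes with the smallest p values, TPI1 had log2 differences of 0.24 ± 0.11 for both shRNAs averaged and 0.30 ± 0.12 for SH3 (adjusted p = 0.744 and 0.967). PDHB was at 55.8, 60.6 and 59.3 CPM in EV, at 65.3, 63.1 and 66.6 CPM in SH2 and at 62.9, 66.3 and 62.8 CPM in SH3. It was the only gene of the 37 with all 6 knockdown samples above all 3 controls, a pattern of 2.16% of all genes, and none had all 6 below (2.61%). Its difference for SH2 was 0.15 ± 0.08 (adjusted p = 0.951). PFKFB2 was at 8.75, 10.1 and 9.47 CPM in EV, at 6.96, 8.84 and 7.31 CPM in SH2 and at 6.27, 8.92 and 6.37 CPM in SH3, below EV at every number, with -0.29 ± 0.18 for SH2 (adjusted p = 0.966). For SH3 against SH2, ENO2 and GPI led with 2.05 ± 1.11 and 0.41 ± 0.24 (adjusted p = 0.998 for both), and they stood at -0.63 and 0.08 without SH3 1.

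Compared by number, SH3 minus EV had a median log2 difference over the 37 genes of 0.40 at number 1, 0.08 at number 13 and 0.11 at number 25, with 32, 26 and 29 genes above 0. For SH2 minus EV the medians were 0.18, -0.00 and 0.02, with 28, 18 and 20 genes above 0. The medians over all genes lay between -0.00 and 0.03. SH3 was above EV at all 3 numbers for 22 of the 37 genes (59.5%, beside 20.2% of all genes) and below at all 3 for 2 (5.41%, beside 20.2%). SH2 was above at all 3 for 14 (37.8%, beside 27.1%) and below for 7 (18.9%, beside 24.5%). The genes of a pathway are not independent replicates, and these counts carry no test. With the samples numbered 1 left out, no gene passed in any of the 4 contrasts without the block.

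**Figure D5:**
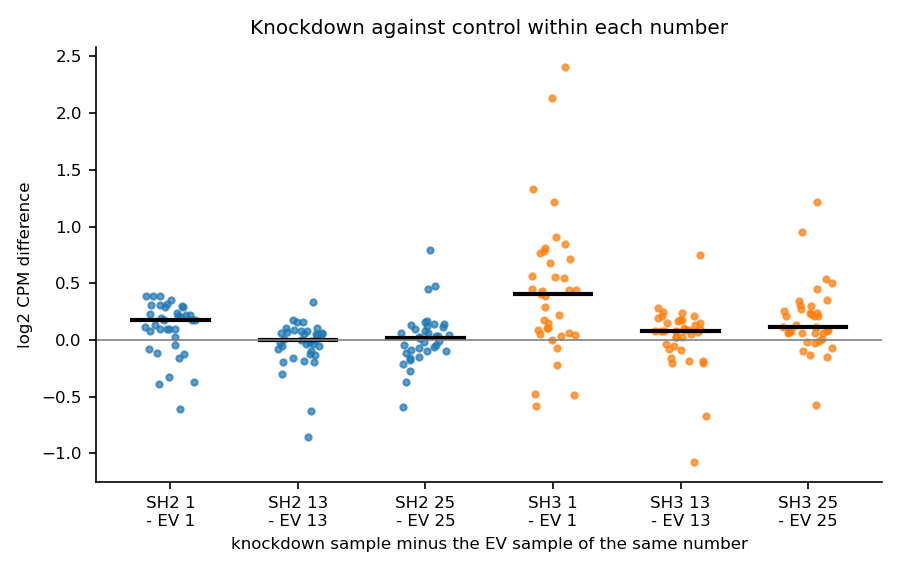
Each point is the log2 CPM difference (vertical) of 1 of the 37 genes between a knockdown sample and the EV sample of the same number (horizontal), and black bars are medians. The bar for SH3 at number 1 is at 0.40, with ALDOC and ENO2 above 2, and the bars of the other 5 columns lie between -0.00 and 0.18.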

How the data were processed

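RNA from 9 SKNO-1 samples was sequenced; the labels give total RNA and the TruSeq kit, and the study's methods, worded for sorted mouse cells, give poly(A) selection and no strand information. The deposited values were raw counts per RefSeq transcript, made by the authors on hg19, and the submitters' processing notes name STAR, featureCounts and DESeq2 without versions or roles. Each of 48104 rows per file pairs a transcript with a symbol, and reads shared by isoforms were counted in each, so that every symbol was represented by its row with the highest total. Of the 38 genes, 28 had more than 1 row. For PFKFB2 the lower of its 2 rows held 33.4% of the counts of the row used, so its values concern the higher row. The next lowest share was 89.4%, for ENO1. Group and number were taken from the sample titles.

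Counts were fitted with edgeR 4.0.16 (R 4.3.3) by the quasi-likelihood F test on all 9 samples after filterByExpr (minimum count 10, minimum total 15; 14199 genes) and TMM scaling. P values were adjusted by Benjamini-Hochberg over all genes tested, with a threshold of 0.05. The SE is the log2 fold change divided by the square root of F. Models held group and number (4 residual degrees of freedom), group with number 1 and their interaction (3), or group alone (6). Alternatives were DESeq2 1.42.0, other scaling, no filter, sums of rows, a length offset, the number as a replicate block, and leaving out samples. On simulated counts, where 200 genes had been given a log2 change of 1, the fits recovered 90.5% (number 1 against 13 and 25, 14100 genes), 45.5% (difference of SH3 from EV, 14077 genes), 91% (both shRNAs against EV without the block, 14094 genes) and 89% (with it, 14081 genes). The simulated counts held no difference between the numbers beyond the planted changes, and took their spread from the model of group and number. The 91% therefore does not carry over to the real counts without the block, where ASXL2 itself did not pass.

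Over 9 pairs of samples with the same number, deviations from the group means correlated at 0.398 to 0.731, so the numbers pair the samples. This pairing comes from the data, since the labels do not explain the numbers. No pair within a group agreed within sampling noise (chi-square per degree of freedom 17.6 to 128). The study speaks of biological replicates, but the labels do not say that samples were separate cultures, so p-values measure the spread between these samples only. A count of 3 corresponds to 0.0847 to 0.108 CPM, and such floors cover counting error only. Lengths are those of the canonical transcript in GENCODE v44 mapped to GRCh37.

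The members, the lists and the comparison of number 1 with 13 and 25 were chosen with earlier results of these data known. Values in every sample were given for the gene with the highest level per length in each role, the 12 genes with the smallest p in number 1 against 13 and 25, genes past the threshold in a knockdown contrast, and the 2 with the smallest p in each. SLC16A1, PYGB, PDP1 and MPC1 were added after their values were seen.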

Additional observations from a re-analysis of the deposited data

How the results depend on the processing

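The 12 genes named by smallest p between the samples numbered 1 and the others kept their direction under each alternative, and only PGAM1 lost its call (adjusted p = 0.0510 in edgeR with no group term). The number of genes of the list called was 23 to 28 under other scaling, filter, tool or model (5200 to 6624 of all genes). It was 21 to 27 with 1 sample left out (4813 to 6282 of all genes). Between the samples numbered 25 and 13, DESeq2 called 4 of the 37 genes, beside 981 of all 14199. Without the filter edgeR called 2 of 38, beside 1067 of 19912. With 1 sample left out 0 to 9 passed (50 to 2750 of all genes, the highest without SH3 1). For the interaction of SH3 with number 1, DESeq2 called 17 genes, 2 of them in the list, and no filter 2 genes. In the knockdown contrasts DESeq2 called 25 genes for SH2, 26 for SH3, 11 for SH3 against SH2 and 56 for both shRNAs averaged. With the number as a replicate block, which treats samples of the same number as paired, edgeR called 40, 59, 15 and 156. Among these was 1 gene of the list, for both shRNAs averaged (PGAM1, 0.28). The block changed no other call of the list. The block without SH3 1 called 1604, 368, 103 and 1755 genes (2, 3, 0 and 5 of the list), and the block on the samples numbered 13 and 25 called 267, 341, 129 and 370 (0, 3, 1 and 1 of the list). The block with the length offset gave 6, 21, 7 and 13, so that PGAM1 did not pass there. With 1 sample left out, 0 to 1 gene passed for SH3 and 0 to 2 for both shRNAs averaged. ENO2 in SH3 against SH2, 2.05, ranged from -0.63 (without SH3 1) to 2.999 (without SH2 1). The causes of these changes were not tested. These 2 settings, and the samples numbered 13 and 25 without the block, which called no gene, were chosen after seeing the data. Leaving out a sample can leave an arm of the interaction with 1 sample, which is then assumed to vary like the rest.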
